A study of Mus musculus with 31 samples.

Results

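Disease-associated microglia genes are a set of transcripts that microglia switch on around dying neurons, lipid debris and protein deposits. Here the set was Apoe, Trem2, Tyrobp, Cst7, Lpl, Axl, Itgax, Clec7a, Spp1 and Cd68, chosen by gene symbol, and all 10 were among the 15648 genes of the count table. They were followed in bulk RNA of the left hippocampus of 31 mice that were killed 2, 5, 8 or 28 days after a viral vector had been injected. The animals were adult and carried the genotype OT-I/Rag-/-, that is, their only T cells bear a transgenic receptor for a peptide of chicken ovalbumin (OVA), and, with Rag1 deleted according to the study's methods, they lack B cells and T cells of other specificities. They received either rAAV-hSyn-OVA-mCherry (rAAV-OVA) or rAAV-hSyn-mCherry (rAAV-control) into the dorsal CA1 region of both hemispheres, so surgery, virus, mCherry and genotype were shared by both groups. The hSyn promoter restricts the transgene to neurons. Each group held 4 mice at 2, 5 and 28 days, while 4 rAAV-OVA and 3 rAAV-control mice were sequenced at 8 days. The labels give a batch number, without saying of what, with 23 animals in the first and 8 in the second. The second batch contributed 2 mice to each group at 2 and 28 days and none at 5 or 8 days.

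In healthy brain, microglia carry a homeostatic program that includes the purinergic receptor P2ry12. When they meet exposed lipids on damaged cells, the surface receptor TREM2 signals through its adaptor TYROBP and the kinase SYK, and homeostatic genes give way to genes of phagocytosis, lysosomes and lipid handling. Apoe, Axl, Lpl and Cd68 are not private to microglia. Astrocytes are the main source of Apoe in healthy brain, neurons express Lpl, Axl is found in several glial and vascular cells, and Cd68 and Tyrobp are shared by all macrophages. Cst7, Itgax and Tyrobp are also found in cytotoxic lymphocytes or dendritic cells.

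Libraries held between 19046977 and 57407902 counts. Each of the 10 genes reached 15 counts in 26 mice or more and passed the filter on low counts, which asked for 15 counts in 15 mice. Cst7 reached 15 counts in 11 of 15 rAAV-control mice, Itgax in 13 and Clec7a in 14, so these 3 genes passed only with the rAAV-OVA mice, of which 15, 16 and 16 reached it. The level of a gene is its CPM, the counts per 1000000 of a library after TMM scaling. Comparisons are given as Log2FC with the standard error (SE) from edgeR's quasi-likelihood model of the 8 groups and 2 surrogate variables, with the FDR adjusted over the 15648 genes. Folds are taken from this fitted Log2FC. They are net of the surrogate variables and can differ from the ratio of the CPM printed beside them. A differentially expressed gene (DEG) had to reach FDR ≤ 0.05 together with a Log2FC beyond 0.66 in either direction, and such genes are said to be called. Shares of all genes come from this model unless stated, and most counts under other settings are given without them. Nothing in the labels beyond the mouse names describes litters, so these errors cover the spread between mice.

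2 libraries stood apart from their groups and return throughout. The rAAV-control mouse replicate 2 at 8 days had Cst7 at 49.8 CPM against 0.543 and 1.75 CPM in the other rAAV-control mice of that day. The rAAV-OVA mouse replicate 4 at 28 days had Cst7 at 3.59 CPM against 45.5 to 128 CPM in the others. Both were kept under the labels they carry, and values without them are given beside the results that move most. Defining microglia markers were present in every group, with group medians of P2ry12 between 31.2 and 51.8 CPM and of Tmem119 between 27 and 75.3 CPM.

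**Figure D1:**
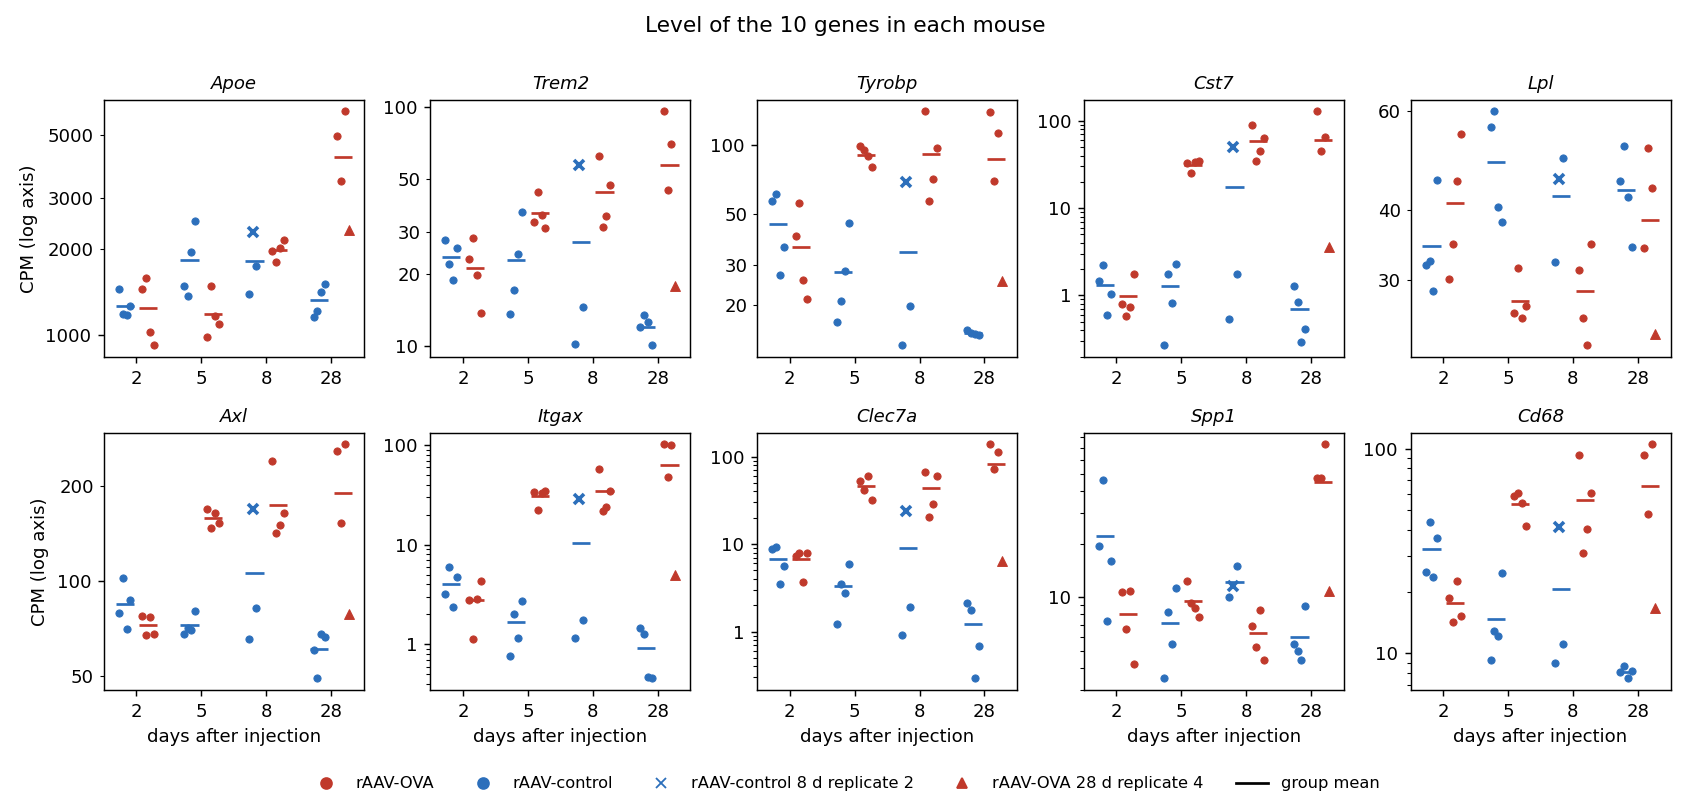
CPM of the 10 genes (log axes that differ between panels) against days after injection, 1 symbol per mouse, with the group mean as a bar. Cst7, Itgax and Clec7a separate rAAV-OVA from rAAV-control mice at 5 and 28 days, whereas the cross at 8 days (rAAV-control replicate 2, Cst7 49.8 CPM) lies among the red symbols of that day and the triangle at 28 days (rAAV-OVA replicate 4, Cst7 3.59 CPM) lies near the rAAV-control mice.

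No gene of the set was called at 2 days, 6 rose and 2 fell at 5 days, and 9 rose at 28 days. These counts include Cst7, Itgax and Clec7a, which passed the filter only with the rAAV-OVA mice. Of the other 7 genes, 3 rose and 2 fell at 5 days, 2 rose at 8 days and 6 rose at 28 days. At 2 days none of the 10 genes was a DEG, beside 0.00% of all genes (0 of 15648) by edgeR, none of the 10 by DESeq2 or limma's voom, and 3 of the 10 had an unadjusted p under 0.05, beside 9.61% of all genes. At 5 days 6 genes were higher in rAAV-OVA mice (Cst7, Itgax, Clec7a, Cd68, Tyrobp and Axl), beside 10.4% of all genes, and 2 were lower (Apoe and Lpl), beside 4.58%. At 8 days 4 genes were higher (Clec7a, Itgax, Cd68 and Tyrobp), beside 7.52% of all genes. At 28 days 9 genes were higher, all but Lpl, beside 14.9% of all genes. The median Log2FC of the 10 genes was -0.22, 1.03, 0.78 and 2.37 at 2, 5, 8 and 28 days, with Cst7, Itgax and Clec7a included. The median of all genes lay between -0.02 and 0.01. In tissue RNA, more cells of a type and more RNA per cell cannot be told apart.

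The 4 calls at 8 days turned on single mice. Without the rAAV-control mouse replicate 2, 7 of the 10 genes were DEGs, with Trem2, Cst7 and Axl added. Without rAAV-OVA replicate 1 or 3, or rAAV-control replicate 1 or 3, none of the 10 was called, and without rAAV-OVA replicate 4 a single gene was. DESeq2 called 6 and limma's voom 5. None was called without surrogate variables, where the Log2FC of the 4 genes were 2.30 for Clec7a, 1.72 for Itgax, 1.47 for Cd68 and 1.43 for Tyrobp, against 1.97, 1.77, 1.24 and 1.01. The shares of all genes called under these settings are not given here. These counts alone therefore do not show whether the 10 genes or the whole table moved. At 5 and 28 days Cst7, Itgax and Clec7a had larger Log2FC without the surrogate variables. At 5 days these were 4.53, 4.15 and 3.76, against 3.36, 3.13 and 2.79. Without rAAV-control replicate 4 at 5 days, Cst7 was at 4.08 and Clec7a at 3.45. The log2 ratios of mean CPM for Cst7, Itgax and Clec7a were 4.62, 4.2 and 3.81 at 5 days and 6.42, 6.12 and 6.08 at 28 days.

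**Figure D2:**
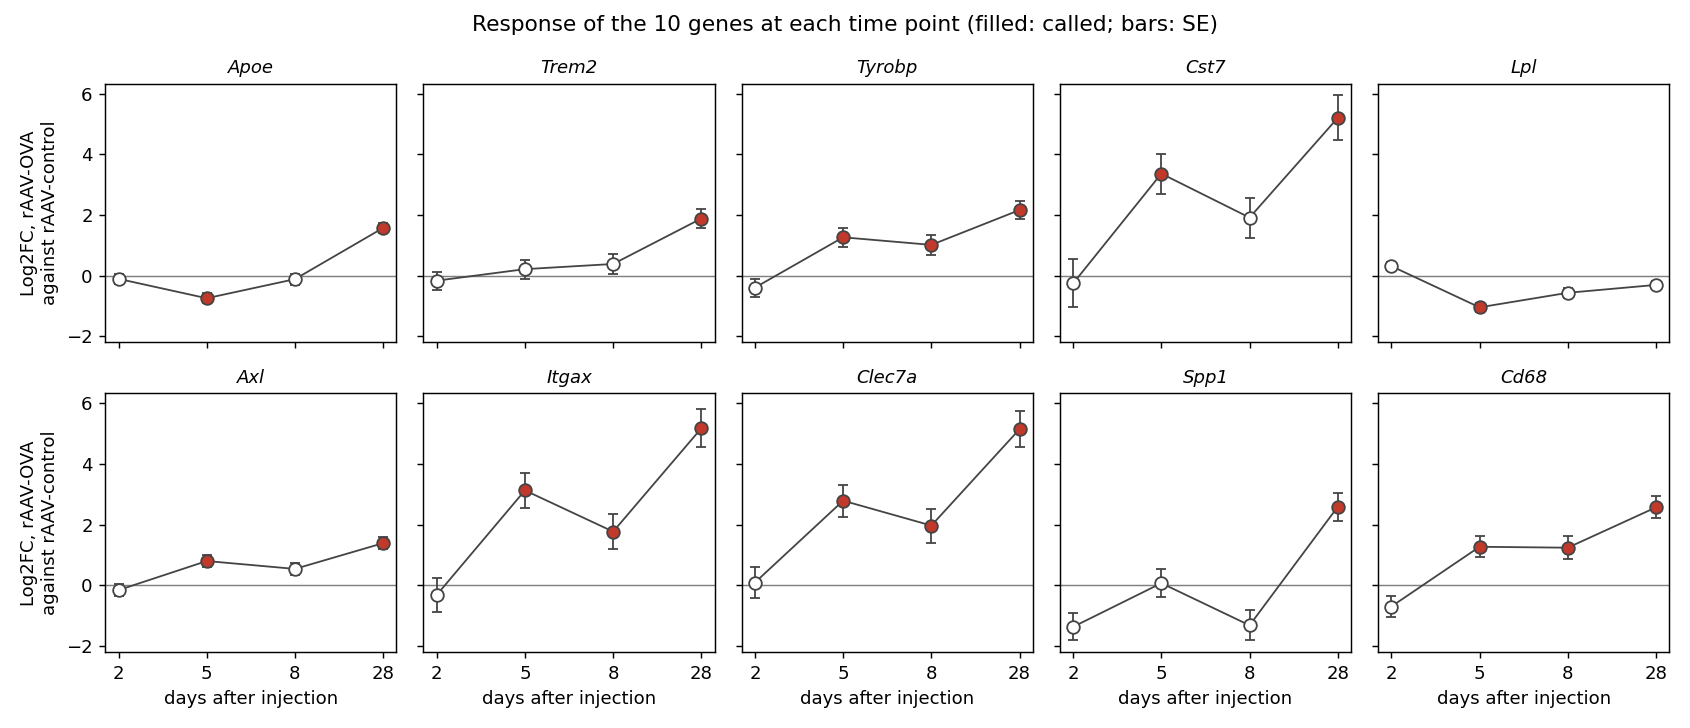
Log2FC of rAAV-OVA against rAAV-control mice (y axis, 1 scale for all panels) at each time point, with bars for the SE and filled points for genes called DEGs. Cst7, Itgax and Clec7a reach 5.20, 5.18 and 5.15 at 28 days, Apoe turns from -0.75 at 5 days to 1.57 at 28 days, and Spp1 is called at 28 days only.

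Among the receptors, Tyrobp and Clec7a rose from 5 days on, whereas Trem2 was a DEG at 28 days only. Trem2 encodes the lipid-sensing receptor of microglia. At 5 days Trem2 measured 33, 44.1, 35.4 and 31.2 CPM in rAAV-OVA mice and 13.6, 17.2, 24.4 and 36.5 CPM in rAAV-control mice. The groups overlapped through a single rAAV-control mouse, and the Log2FC was 0.21 ± 0.31 (SE), FDR = 0.63. Without surrogate variables it was 0.64 ± 0.42, FDR = 0.25, and was not called either. At 28 days the rAAV-OVA mice held 95.4, 45.1, 69.5 and 17.9 CPM and the rAAV-control mice 12, 13.5, 12.6 and 10.1 CPM. The lowest rAAV-OVA mouse still exceeded every rAAV-control mouse of that day, as for 15% of all genes and for 9 of the 10, and the Log2FC was 1.88 ± 0.31, FDR = 3.9e-05. On day 8 Trem2 had a Log2FC of 0.38 ± 0.33, FDR = 0.45. It was 1.33 ± 0.34, FDR = 0.01, without the rAAV-control mouse replicate 2, which held 57 CPM.

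Tyrobp encodes the transmembrane adaptor that carries the signal of TREM2 and of several other myeloid and lymphoid receptors. Its level at 5 days was 99.5, 95.7, 89.7 and 80.1 CPM in rAAV-OVA mice and 16.8, 20.9, 28.2 and 45.6 CPM in rAAV-control mice. The groups did not overlap, as for 21% of all genes with higher rAAV-OVA values that day, and Tyrobp rose by a Log2FC of 1.26 ± 0.31, FDR = 0.0029. It was 1.01 ± 0.33, FDR = 0.042, at 8 days (1.88 ± 0.39, FDR = 0.0016, without the rAAV-control mouse replicate 2), and at 28 days it was 2.16 ± 0.31, FDR = 8.1e-06 (1.57 ± 0.35, FDR = 0.0023, without rAAV-OVA replicate 1). The 4 rAAV-control mice at 28 days lay between 14.8 and 15.6 CPM, a range far narrower than that of the rAAV-OVA mice, from 25.6 to 140 CPM.

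Clec7a encodes dectin-1, a receptor for fungal glucans that signals through SYK and is among the genes that most sharply separate disease-associated from homeostatic microglia. It measured 52.7, 41.6, 60.2 and 31.8 CPM in rAAV-OVA mice at 5 days, against 1.21, 3.47, 2.75 and 5.88 CPM in rAAV-control mice. All rAAV-OVA mice were above all rAAV-control mice, with a Log2FC of 2.79 ± 0.53, FDR = 0.00031, or 6.93-fold in the fit. The log2 ratio of the mean CPM was larger, at 3.81. Clec7a levels at 28 days were 138, 71.7, 112 and 6.48 CPM against 2.12, 1.76, 0.293 and 0.687 CPM. This was a Log2FC of 5.15 ± 0.60, FDR = 1.3e-06, or 35.6-fold, and the rAAV-OVA mouse replicate 4 was again the lowest of its group yet above all rAAV-control mice of that day. The Log2FC was 4.36 ± 0.71 without rAAV-OVA replicate 1 and 6.07 ± 0.92 without surrogate variables, called both times. Its Log2FC at 8 days of 1.97 ± 0.56, FDR = 0.021, became 4.03 ± 0.68, FDR = 0.00031, without the rAAV-control mouse replicate 2.

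Genes of TREM2 and TYROBP signalling, a list compiled by hand without the 10 genes that also holds other receptors paired with TYROBP (Sirpb1a, Siglech and Clec5a), were tested for 13 of 14 members. None was a DEG at 2 days, and 9, 10 and 11 were higher at 5, 8 and 28 days with none lower, beside 10.4%, 7.52% and 14.9% of all genes higher, at median Log2FC of 1.53, 1.30 and 1.79. Syk, the kinase recruited by TYROBP, had a Log2FC of 1.53 at 5 days (FDR = 0.0014) and 1.87 at 28 days (FDR = 0.00012). The phospholipase Plcg2 reached 1.87 (FDR = 5.8e-06) and the lipid phosphatase Inpp5d 1.79 (FDR = 1.2e-05) at 28 days. The inhibitory phosphatase Ptpn6 had the largest increase of this list at 28 days, a Log2FC of 3.36 (FDR = 1.6e-06), followed by the receptor Sirpb1a with 2.82 (FDR = 0.017). Vav3, a guanine nucleotide exchange factor, was lowest with -0.06 (FDR = 0.61).

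Itgax, which encodes CD11c, the alpha chain of a complement-binding integrin, was raised from 5 days on. At 5 days it measured 33.5, 22.1, 33.2 and 34.3 CPM in rAAV-OVA mice and 0.761, 2.01, 1.15 and 2.76 CPM in rAAV-control mice. The groups were separated by a wide gap, and the Log2FC was 3.13 ± 0.57, FDR = 0.00022, or 8.74-fold. At 28 days the rAAV-OVA mice held 102, 48.4, 99.4 and 5.00 CPM and the rAAV-control mice between 0.458 and 1.46 CPM. Itgax then had a Log2FC of 5.18 ± 0.63, FDR = 1.8e-06, or 36.3-fold, with 4.56 ± 0.75 without rAAV-OVA replicate 1 and 6.10 ± 0.91 without surrogate variables, called both times. At 8 days Itgax reached a Log2FC of 1.77 ± 0.58, FDR = 0.043, and 3.95 ± 0.65, FDR = 0.00024, without the rAAV-control mouse replicate 2, which held 28.7 CPM. Its beta chain Itgb2 rose by 2.70 at 5 days (FDR = 1.9e-05), 2.21 at 8 days (FDR = 0.0012) and 3.06 at 28 days (FDR = 3e-06). Of the other alpha chains of this integrin family, Itgal, the partner typical of lymphocytes, had a Log2FC of 4.92 at 28 days (FDR = 5.3e-06). Itgam, the CD11b chain of microglia and other myeloid cells, had 1.09 (FDR = 0.0017).

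Promoter windows of RefSeq, in build GRCm38.p6, were matched for 8 of the 10 genes, in 12 windows of 300 bases. They reach from 250 bases before to 50 bases after a transcription start. The letters GAGGAA, a core of sites bound by the myeloid factor PU.1, stood in 8 of the 12 windows (of Apoe, Axl, Cd68, Clec7a, Spp1 and Trem2), some of which belong to the same gene, and in 28.3% of all 32851 windows. Both windows of Clec7a overlap and hold the same site, which is counted in each. The letters TGANTCA of an AP-1 element stood in 4 of the 12 windows (of Cd68, Cst7, Itgax and Trem2), and in 7.81% of all windows. The ISRE core was found in 1 window, of Spp1 (3.44% of all windows), and the GAS letters TTCNNNGAA (8.30%), the kappaB consensus (8.46%) and CACGTG (7.15%) were found in none of the 12. Both strands were searched, and these motifs do not contain each other. The last 100 bases before the start are shown for Itgax and Clec7a, called from 5 days on, and for Trem2, called at 28 days alone, with both kinds of letters in capitals. The AP-1 letters of Cst7 cross the start and are not shown.
Itgax, chr7:128129450-128129549, plus strand: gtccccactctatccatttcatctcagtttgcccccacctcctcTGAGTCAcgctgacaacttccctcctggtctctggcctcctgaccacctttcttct
Clec7a, chr6:129472780-129472879, minus strand: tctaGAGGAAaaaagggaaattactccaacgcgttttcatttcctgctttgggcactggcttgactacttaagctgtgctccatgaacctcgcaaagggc
Trem2, chr17:48346301-48346400, plus strand: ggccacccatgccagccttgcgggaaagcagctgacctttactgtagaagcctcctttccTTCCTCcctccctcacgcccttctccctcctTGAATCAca
The capitals mark the AP-1 letters in Itgax, the PU.1 core in Clec7a, and in Trem2 the PU.1 core on the opposite strand followed by the AP-1 letters. These are matches of letters, and binding was not measured.

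The lysosomal pair Cst7 and Cd68 rose at 5 and 28 days. Cst7 encodes cystatin F, which holds back cathepsins inside lysosomes and cytotoxic granules. At 5 days it measured 32.6, 25.5, 33.4 and 34.9 CPM in rAAV-OVA mice against 0.268, 1.75, 0.816 and 2.31 CPM in rAAV-control mice. With a Log2FC of 3.36 ± 0.66, FDR = 0.00044, or 10.3-fold, it had the largest increase of the 10 genes at that day. At 28 days the rAAV-OVA mice held 128, 45.5, 64.6 and 3.59 CPM and the rAAV-control mice 1.27, 0.842, 0.293 and 0.412 CPM. The Log2FC was 5.20 ± 0.74, FDR = 8.4e-06, or 36.7-fold. It was 4.20 ± 0.84 without rAAV-OVA replicate 1, 4.46 ± 0.89 with the batch label added and 6.41 ± 1.08 without surrogate variables, and was called in each case. At 8 days Cst7 missed the call with a Log2FC of 1.91 ± 0.66, FDR = 0.054, but was called by DESeq2 (2.05, FDR = 0.039) and limma's voom (2.65, FDR = 0.0078). Without the rAAV-control mouse replicate 2 the Log2FC was 4.98 ± 0.65, FDR = 4.6e-05.

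Cd68 encodes macrosialin, a glycoprotein of late endosomes and lysosomes. It was the only one of the 10 genes whose groups did not overlap at 2 days, when rAAV-OVA mice held 18.6, 14.2, 22.6 and 15.2 CPM and rAAV-control mice 25, 43.7, 23.7 and 36.7 CPM. Of all genes, 1.94% were lower without overlap at that day, and the Log2FC of -0.70 ± 0.34 had an FDR of 0.52. The order was the opposite, again without overlap, at 5 and 28 days. At 5 days Cd68 measured 58.6, 60.4, 54.3 and 41.9 CPM against 9.26, 12.9, 12.1 and 24.7 CPM, a Log2FC of 1.27 ± 0.35, FDR = 0.0077. The Log2FC at 8 days was 1.24 ± 0.38, FDR = 0.033, with overlapping groups, and 2.04 ± 0.46, FDR = 0.0035, without the rAAV-control mouse replicate 2, which held 41.4 CPM. Cd68 at 28 days spread in rAAV-OVA mice from 16.7 to 105 CPM, above the 7.54 to 8.70 CPM of rAAV-control mice, with a Log2FC of 2.57 ± 0.36, FDR = 6.7e-06.

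All 5 proteases listed as held back by cystatin F were higher at 28 days, and 4 and 3 of them at 5 and 8 days (14.9%, 10.4% and 7.52% of all genes). Ctss, the cathepsin that trims the invariant chain of MHC class II, showed the largest Log2FC at 28 days with 2.70 (FDR = 2.3e-06), and Ctsh followed with 2.53 (FDR = 1.8e-06). Ctsc, the activator of granule proteases and a main target of cystatin F, rose by 3.07 at 5 days (FDR = 1.3e-06), 2.19 at 8 days (FDR = 0.00038) and 2.48 at 28 days (FDR = 4e-06). Legumain (Lgmn) reached 1.07 (FDR = 0.00025) and Ctsl 0.71 (FDR = 0.0013) at 28 days.

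Of the lipid genes, Apoe was lower at 5 days and higher at 28 days, and Lpl was lower at 5 days. Apoe encodes the main lipid carrier of brain. At 5 days its level was 980, 1482, 1161 and 1091 CPM in rAAV-OVA mice and 1480, 1361, 1942 and 2498 CPM in rAAV-control mice. The groups touched, since 1 rAAV-OVA mouse was above the lowest 2 rAAV-control mice, and the Log2FC was -0.75 ± 0.17, FDR = 0.0019. This call was lost without surrogate variables (-0.63 ± 0.23, FDR = 0.037), with the batch label in their place (-0.63, FDR = 0.03) and with the mice of that day alone (-0.60, FDR = 0.038). It was also lost without rAAV-OVA replicate 1 (-0.64, FDR = 0.012) or rAAV-control replicate 3 (-0.66, FDR = 0.018) or 4 (-0.49, FDR = 0.053). Of 8 astrocyte markers, the gap junction gene Gja1 was called lower at 5 days (-0.87, FDR = 8.6e-05), beside 4.58% of all genes. Slc1a2 (-0.64, FDR = 0.0042), Aldoc (-0.56, FDR = 0.0036) and S100b (-0.52, FDR = 0.0014) were short of the limit on Log2FC, and Gfap had 0.91 (FDR = 0.053). The summed astrocyte markers were at 6897 to 8013 CPM in rAAV-OVA and 7147 to 8560.1 CPM in rAAV-control mice, and their part in the level of Apoe was not tested. At 28 days Apoe measured 4945, 3437, 6032 and 2331 CPM against 1154, 1215, 1411 and 1509 CPM. All rAAV-OVA mice were above all rAAV-control mice, and the Log2FC was 1.57 ± 0.17, FDR = 4.4e-07, or 2.97-fold. At 2 and 8 days the Log2FC was -0.11 ± 0.17 (FDR = 0.89) and -0.12 ± 0.18 (FDR = 0.69).

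Lpl encodes lipoprotein lipase, which releases fatty acids from lipoproteins. It measured 26.2, 31.5, 25.6 and 26.9 CPM in rAAV-OVA mice at 5 days and 56.2, 60.0, 40.5 and 38.1 CPM in rAAV-control mice. No mouse of either group entered the range of the other, as for 19.6% of all genes in this direction, and Lpl fell by 1.05 ± 0.15 on the log2 scale, FDR = 1.7e-05. Its Log2FC of -0.57 ± 0.16 at 8 days had an FDR of 0.02 and was short of the limit on Log2FC, and the ranges overlapped. At 28 days rAAV-OVA mice held 34.2, 51.6, 43.7 and 24 CPM and rAAV-control mice 45.1, 52.1, 42.2 and 34.3 CPM, with a Log2FC of -0.31 ± 0.14, FDR = 0.08. The sign at 28 days differed between batches, at 0.22 ± 0.24 in batch 1 and -0.54 ± 0.36 in batch 2. Some neuron and oligodendrocyte markers were also lower at 5 days, while Gad2 (0.37, FDR = 0.0091), Gad1 (0.10, FDR = 0.44) and Olig2 (0.02, FDR = 0.93) had positive Log2FC. The summed level of 8 neuron markers was 6878 to 8276 CPM in rAAV-OVA and 10441 to 13006 CPM in rAAV-control mice, with 2 of 8 called lower, beside 4.58% of all genes. That of 6 oligodendrocyte markers was 2571 to 3798 CPM against 4004 to 6902 CPM, with 3 of 6 called lower, beside the same share. By 28 days the neuron markers were at 3898 to 8552 CPM against 10206 to 11509 CPM with 6 of 8 called lower, beside 6.49% of all genes, led by Slc17a7 (-1.26, FDR = 0.00022) with Gad2 (0.13, FDR = 0.29) and Gad1 (-0.16, FDR = 0.17) at the other end, while Lpl was not called. Of 8 hippocampal neuron markers 3 were called lower at 28 days, beside the same 6.49%, from Neurod6 (-1.99, FDR = 2.1e-05) to C1ql2 (-0.51, FDR = 0.22) and Calb1 (-0.16, FDR = 0.64), and their sum was 549 to 1052 CPM against 1200.3 to 1301 CPM. None of the oligodendrocyte markers was called at 28 days, among them Mbp (0.09, FDR = 0.77) and Olig2 (0.15, FDR = 0.42). Their part in the level of Lpl was not tested.

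Among 12 of 13 APOE receptors and lipid efflux genes that were tested, 1 was higher at 5 days and 5 at 28 days (10.4% and 14.9% of all genes), with 1 lower at 8 and at 28 days (0.511% and 6.49%). Abca1, the transporter that loads lipid onto APOE, had a Log2FC of 0.37 (FDR = 0.31) at 5 days and rose by 1.71 (FDR = 2.1e-05) at 28 days. Clusterin (Clu), another lipid carrier of astrocytes, rose by 0.99 at 28 days (FDR = 3.9e-05). Apoc2 and Apoc1, which neighbour Apoe in the same gene cluster, were the largest increases of the list at 28 days. Apoc1 reached 2.64 on the log2 scale (FDR = 1.7e-05), while Apoc2, the obligate cofactor of lipoprotein lipase, averaged 3.22 CPM in rAAV-OVA mice and was at 0 in all rAAV-control mice of that day. The endocytic APOE receptor Lrp1 had a Log2FC of -0.16 (FDR = 0.17). Of 8 tested partners of LPL and lipid storage genes, 4, 2 and 5 were higher at 5, 8 and 28 days (10.4%, 7.52% and 14.9% of all genes) and none lower. Cd36, a fatty acid receptor, rose by 3.55 at 5 days (FDR = 3.3e-07), and Angptl4, an inhibitor of lipoprotein lipase, by 1.88 (FDR = 0.0008). The lipid droplet coat gene Plin2 rose by 1.83 at 5 days (FDR = 0.00025) and by 1.81 at 28 days (FDR = 0.00015).

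Axl encodes a receptor kinase for the engulfment of dying cells. It measured 169, 147, 165 and 153 CPM in rAAV-OVA mice at 5 days against 68.1, 70.7, 69.9 and 80.3 CPM in rAAV-control mice. These tight groups were far apart, and the Log2FC was 0.80 ± 0.20, FDR = 0.003. At 8 days the Log2FC was 0.54 ± 0.21, FDR = 0.084, and 0.98 ± 0.25, FDR = 0.0097, without the rAAV-control mouse replicate 2, which held 170.0 CPM. At 28 days Axl measured 259, 153, 272 and 78.8 CPM against 60.3, 49.1, 67.8 and 66.4 CPM, a Log2FC of 1.39 ± 0.19, FDR = 5.4e-06. Lgals3, which encodes the lectin galectin-3, a ligand of MERTK, rose by 3.66 at 28 days (FDR = 3.2e-05). The sister receptor Mertk had a Log2FC of 0.46 (FDR = 0.057) and Tyro3, which is mainly neuronal, -0.25 (FDR = 0.074) at 28 days. Of their bridging ligands, Pros1 rose by 0.97 at 5 days (FDR = 0.0032) and by 1.53 at 28 days (FDR = 1.9e-05). Gas6, the ligand with the highest affinity for AXL, fell by 0.71 at 5 days (FDR = 0.0058) and had a Log2FC of 0.15 (FDR = 0.52) at 28 days.

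Spp1, which encodes the secreted matrix protein osteopontin, was higher at 28 days alone. At 2 days rAAV-OVA mice held 10.7, 6.61, 10.8 and 4.19 CPM and rAAV-control mice 19.6, 46.0, 7.32 and 16.1 CPM, with a Log2FC of -1.37 ± 0.45, FDR = 0.32. At 8 days the levels were 6.90, 5.25, 8.47 and 4.43 CPM against 10.1, 11.6 and 15 CPM. Every rAAV-OVA mouse was below every rAAV-control mouse, as for 11.9% of all genes, and the Log2FC was -1.32 ± 0.50, FDR = 0.081, while DESeq2's Wald test called it lower (-1.30, FDR = 0.042). At 28 days Spp1 measured 47.4, 47.2, 73.2 and 10.8 CPM against 5.43, 4.97, 4.43 and 8.97 CPM, a Log2FC of 2.59 ± 0.47, FDR = 0.00012, or 6.04-fold. In the rAAV-control mouse replicate 2 at 8 days, Spp1 was at 11.6 CPM, between the other rAAV-control mice, unlike Cst7, Itgax and Clec7a. Of 8 osteopontin receptor genes, 3, 1 and 5 were higher at 5, 8 and 28 days, beside the same shares of all genes as for the partners of LPL, and none lower. Cd44 rose by 3.06 at 5 days (FDR = 5.1e-05) and by 2.86 at 28 days (FDR = 6.2e-05), and Itga5 by 2.92 (FDR = 8.4e-06) and 2.53 (FDR = 1.7e-05). Itgb5 rose by 1.32 (FDR = 4.2e-06) at 28 days, whereas Itgav rose by 0.77 at 5 days (FDR = 6.9e-05) and had a Log2FC of 0.26 (FDR = 0.079) at 28 days.

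The response differed between days for most of the 10 genes. Between 5 and 2 days, 7 differences were called, 6 toward higher (10.6% of all genes) and 1 toward lower (4.51%). These were Cst7 (3.62 ± 1.03, FDR = 0.014), Itgax (3.45 ± 0.80, FDR = 0.0036), Clec7a, Cd68, Tyrobp and Axl, and in the other direction Lpl (-1.37 ± 0.21, FDR = 0.00012). Without rAAV-OVA replicate 4 at 2 days the calls of Tyrobp (1.39, FDR = 0.054) and Axl (0.76, FDR = 0.09) were lost. With 1 mouse left out, the difference ran from 3.4 to 4.36 for Cst7 and from 2.43 to 3.37 for Clec7a. Between 8 and 5 days no difference was called for the 10 genes, beside 0.211% of all genes, and 2 of the 10 had an unadjusted p under 0.05 (8.28% of all genes). DESeq2's Wald test and limma's voom also called none of the 10. Between 28 and 5 days, 5 differences were called, all toward higher, beside 4.19% of all genes. The difference in Log2FC was 2.32 ± 0.24 for Apoe (FDR = 8.9e-06), 2.53 ± 0.63 for Spp1 (FDR = 0.014), 2.36 ± 0.76 for Clec7a (FDR = 0.049), 1.67 ± 0.42 for Trem2 (FDR = 0.015) and 0.74 ± 0.21 for Lpl (FDR = 0.023). The call of Clec7a was lost by limma's voom (2.54, FDR = 0.061) and without surrogate variables (2.31, FDR = 0.25). It was also lost in most fits with 1 mouse left out, where the difference went down to 1.73. Between 28 and 8 days, Apoe (1.69 ± 0.25, FDR = 0.0057) and Spp1 (3.91 ± 0.67, FDR = 0.018) were among the 12 genes called in the whole table (0.0767%), of which 9 were higher (0.0575%). These calls were fragile. With the batch label in place of the surrogate variables, none of the 10 was called between 28 and 8 days, at differences of 1.54 for Apoe (FDR = 0.21) and 3.90 for Spp1 (FDR = 0.092), and 2 were called between 28 and 5 days. With 1 mouse left out, the count between 28 and 8 days ran from 0 (without rAAV-OVA replicate 2 or rAAV-control replicate 2 at 8 days, or rAAV-OVA replicate 1, 3 or 4 at 28 days) to 7 (without rAAV-control replicate 3 at 8 days), and reached 6 without rAAV-control replicate 1 at 8 days. It was 1 without rAAV-OVA replicate 4 at 8 days or rAAV-control replicate 1, 2 or 3 at 28 days. The count between 28 and 5 days fell to 2 without rAAV-OVA replicate 3 at 28 days, and to 3 without any other rAAV-OVA mouse of 28 days, without rAAV-OVA replicate 1 at 5 days or without rAAV-control replicate 2 or 4 at 5 days.

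Within rAAV-OVA mice, 6 genes were higher and Lpl was lower at 5 than at 2 days, beside 8.34% higher and 2.67% lower among all genes. With the batch label in place of the surrogate variables the calls of Lpl (-0.46, FDR = 0.13, against -0.86) and Tyrobp (1.11, FDR = 0.066, against 1.18) were lost, and with both those of Tyrobp (0.63, FDR = 0.23) and Cd68 (1.00, FDR = 0.064, against 1.03). From 5 to 8 days Apoe alone was called, with a Log2FC of 0.72 ± 0.17, FDR = 0.012 (1.05% of all genes higher). From 8 to 28 days Apoe rose further by 1.31 ± 0.17, FDR = 0.00061, and Spp1 by 3.08 ± 0.48, FDR = 0.0031 (1.37% of all genes higher). Without rAAV-OVA replicate 2 at 8 days neither step was called, nor was the first without rAAV-OVA replicate 1 at 5 days or 3 at 8 days, or the second without rAAV-OVA replicate 4 at 28 days. The 7 calls from 2 to 5 days became 3 without rAAV-OVA replicate 4 at 2 days, and 6 without rAAV-OVA replicate 2 at 2 days or any 1 rAAV-OVA mouse of 5 days, each of which ended the call of Cd68 (0.90 to 1.10, FDR from just above 0.05 to 0.12). At 28 days 9 genes exceeded their level at 2 days (14.4% of all genes), and 7 when batch and surrogate variables were fitted together, which ended the calls of Trem2 (1.01, FDR = 0.09) and Tyrobp (0.78, FDR = 0.19). In rAAV-control mice none of the 10 was called from 2 to 5 (1.60% of all genes called), 5 to 8 (0.00%) or 8 to 28 days (0.00%), although 4, 4 and 6 of them had an unadjusted p under 0.05 (16.9%, 2.53% and 12% of all genes). By DESeq2's Wald test 1 of the 10 was called from 2 to 5 days and none in the later steps, and limma's voom called none in these 3 steps. Cd68 was the exception over the whole course, and fell by 1.55 ± 0.36 on the log2 scale from 2 to 28 days in rAAV-control mice, FDR = 0.015 (2.52% of all genes lower), a call that limma's voom did not make and that was lost without rAAV-control replicate 2 at 2 days or rAAV-control replicate 1, 2 or 3 at 28 days. The count for this course was 3 without rAAV-control replicate 3 at 2 days. In the shorter steps it rose from 0 to 1 from 2 to 5 days without rAAV-control replicate 3 at 2 days and from 5 to 8 days without rAAV-control replicate 3 at 8 days, and from 8 to 28 days to 1 or 2 without rAAV-control replicate 1 or 3 at 8 days. Day and batch overlap only in part, since the second batch had no mouse at 5 or 8 days.

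The 9 increases at 28 days had the same sign in both batches, each with 2 mice per group. In batch 1 the same 9 genes were called, with Log2FC of 7.99 ± 0.74 for Cst7, 7.37 ± 0.52 for Itgax, 7.83 ± 0.54 for Clec7a, 2.67 ± 0.39 for Trem2 and 1.57 ± 0.24 for Apoe. In batch 2 the values were 5.00 ± 1.65, 5.24 ± 1.69, 4.92 ± 1.60, 1.77 ± 0.74 and 1.81 ± 0.57 for the same genes, and none was called (FDR = 0.37 each), and the whole table held 0 calls. The share of all genes called in batch 1 is not given here, so the counts of the 2 batches cannot be compared by it. Batch 2 included the rAAV-OVA mouse replicate 4. Without that mouse all 9 genes were called in the fit over all days, with a Log2FC of 5.70 ± 0.91 for Cst7 (FDR = 8e-05) and 2.05 ± 0.45 for Trem2 (FDR = 0.0017).

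**Figure D3:**
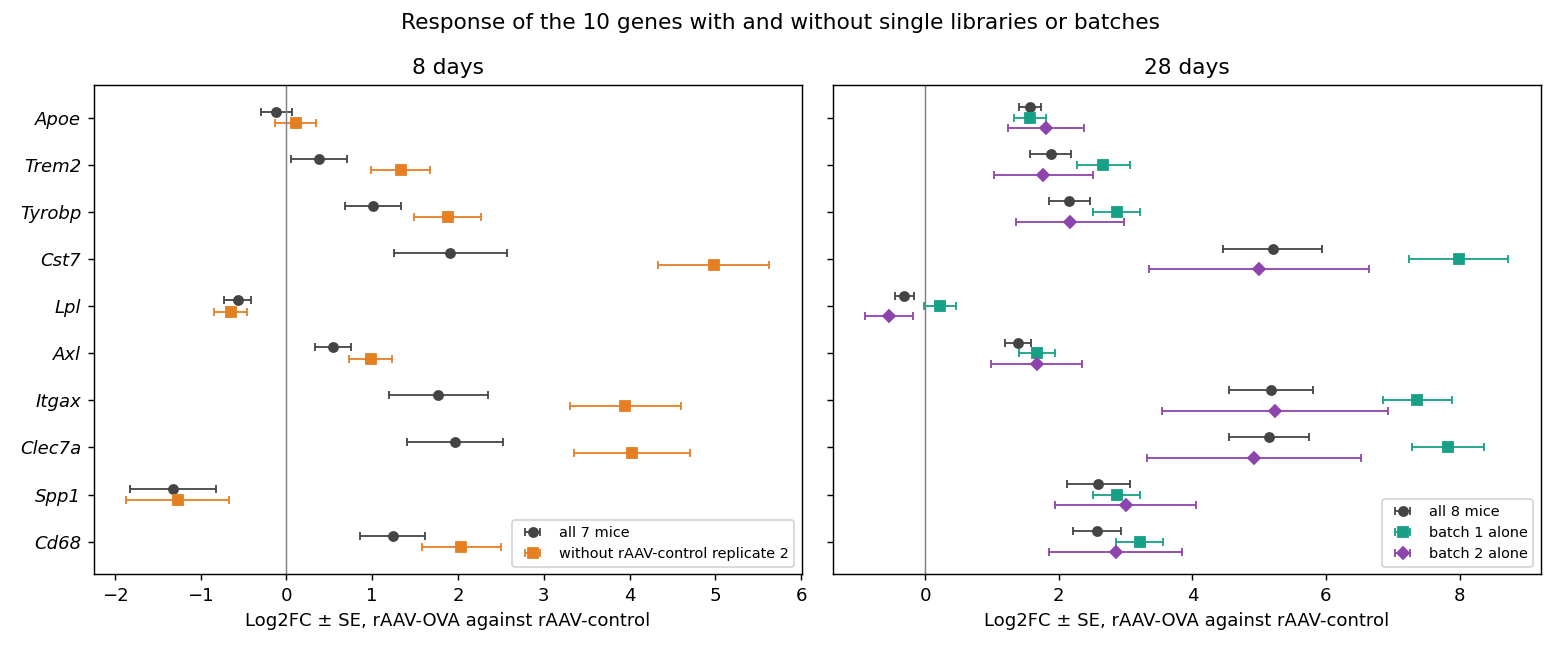
Log2FC with SE (x axis) of the 10 genes (y axis) at 8 days, with all mice and without the rAAV-control mouse replicate 2, and at 28 days, with all mice and in each batch alone. At 8 days Cst7 moves from 1.91 to 4.98 without that mouse, whereas Spp1 stays at -1.32 and -1.27. At 28 days all genes but Lpl are above 0 in both batches, with wider errors in batch 2.

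Homeostatic microglia genes had a smaller median Log2FC than the 10 genes at 5, 8 and 28 days. Of 14 tested, 4 were higher and 1 lower at 5 days, 1 was higher at 8 days and 10 were higher at 28 days, beside 10.4% higher and 4.58% lower, 7.52% higher and 14.9% higher of all genes, at a median Log2FC of 0.31, 0.35 and 1.16, against 1.03, 0.78 and 2.37 for the 10 genes. The latter medians include Cst7, Itgax and Clec7a, which passed the filter only with the rAAV-OVA mice. Of the other 7 genes, Trem2 (0.21), Spp1 (0.07), Apoe (-0.75) and Lpl (-1.05) were below the homeostatic median at 5 days, and Tyrobp, Axl and Cd68 above it. At 8 days Apoe (-0.12), Lpl (-0.57) and Spp1 (-1.32) were below it, with Trem2 (0.38) just above, and at 28 days Lpl alone was below. P2ry12 measured 28.8 to 36.5 CPM in rAAV-OVA and 44.2 to 56.8 CPM in rAAV-control mice at 5 days, with a Log2FC of -0.62 (FDR = 0.011) short of the limit, and 0.38 (FDR = 0.077) at 28 days. Cx3cr1, the fractalkine receptor, rose by 1.38 at 28 days (FDR = 5.1e-06), and Mef2c, which neurons also express, was lowest with -0.53 (FDR = 0.093). To set the 10 genes against the amount of microglial RNA, the mean log2 CPM of the 14 homeostatic genes was subtracted in each mouse, as a description with no test. The remaining difference at 28 days between rAAV-OVA and rAAV-control means was 4.75 for Cst7, 4.59 for Itgax, 4.76 for Clec7a, 1.79 for Cd68, 1.75 for Spp1, 1.37 for Tyrobp and 1.10 for Trem2. It was 0.68 for Apoe and 0.60 for Axl, and it was -1.12 for Lpl. After the subtraction the groups overlapped for Axl and Spp1. Without overlap, 7 genes were higher in rAAV-OVA mice, beside 4.21% of all genes, and Lpl was lower, beside 45.8%. The homeostatic mean itself was 0.90 higher in rAAV-OVA mice at 28 days and 0.37 higher at 5 days, without overlap on either day. At 5 days the remaining difference was 0.37 for Trem2 and -0.97 for Apoe.

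Other genes of the disease-associated program were listed for 32 symbols, of which 30 were tested. None was a DEG at 2 days, and 14, 8 and 23 were higher at 5, 8 and 28 days (10.4%, 7.52% and 14.9% of all genes) with none lower, at a median Log2FC of 0.98, 0.37 and 1.59. Lilrb4a (5.90, FDR = 0.00099) and Cybb (5.34, FDR = 7.4e-06) had the largest Log2FC at 28 days, and Igf1 (-0.24, FDR = 0.42) the smallest. The list was compiled from knowledge of the same program, with results of these mice known.

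**Figure D4:**
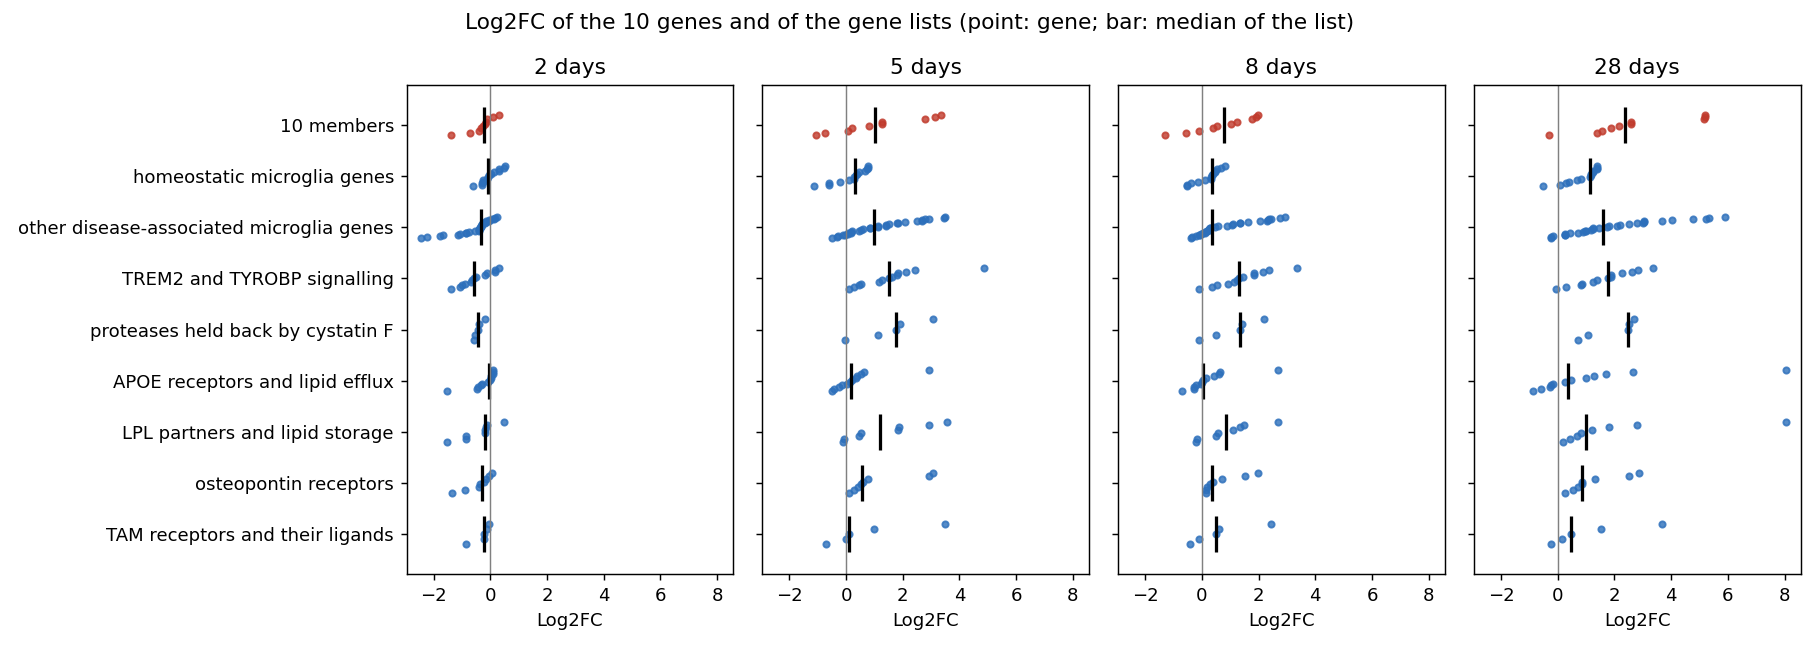
Log2FC (x axis) of the 10 genes and of 8 gene lists (y axis) at each time point, 1 point per gene, with the median of each list as a bar. The median of the 10 genes moves from -0.22 at 2 days to 2.37 at 28 days, and that of the homeostatic genes from -0.07 to 1.16. The former includes Cst7, Itgax and Clec7a, which passed the filter only with the rAAV-OVA mice. Apoc2, at 8.04 on 2 of the lists at 28 days, was at 0 in the rAAV-control mice of that day, so that its fitted value depends on the prior count.

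Markers of cells other than microglia are given beside 10.4%, 7.52% and 14.9% of all genes called higher at 5, 8 and 28 days, and 6.49% called lower at 28 days. Of 10 T cell markers 3 were tested. Cd8a, the co-receptor of cytotoxic T cells, was at 0.00 to 0.257 CPM in rAAV-OVA mice at 2 days and at 32 to 46.2, 52.0 to 163 and 6.28 to 171 CPM at 5, 8 and 28 days. In rAAV-control mice it was at or below 1.35 CPM except in replicate 2 at 8 days. The Log2FC of Cd8a at 28 days was 8.09 (FDR = 4.1e-08), of Lck 5.00 (FDR = 2e-10) and of Thy1, which neurons also express, -0.41 (FDR = 0.00036). The summed level of the 3 markers was 400 to 644 CPM in rAAV-OVA and 501 to 574 CPM in rAAV-control mice. Nearly all of it was Thy1 in rAAV-control mice and in rAAV-OVA replicate 4, whereas the other rAAV-OVA mice also held Cd8a at 79.1 to 171 CPM and Lck at 37.5 to 74.8 CPM. All 8 infiltrating monocyte markers were tested, and 6, 5 and 5 were higher at 5, 8 and 28 days, with a summed level of 374 to 533 CPM in rAAV-OVA and 81.9 to 117 CPM in rAAV-control mice at 5 days, and of 105 to 321 CPM and 97.9 to 120 CPM at 28 days. At 28 days Plac8 (5.26, FDR = 4.8e-05) was among the largest, Vcan (0.28, FDR = 0.093) was the smallest, and F10 was at 0 in all rAAV-control mice.

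Of 5 tested dendritic cell markers 3, 3 and 4 were higher, with a summed level of 17.9 to 154 CPM against 12.9 to 14 CPM at 28 days. Ccr7 (6.73, FDR = 1.9e-06) and Itgae (5.93, FDR = 3.5e-08), which T cells also express, had the largest Log2FC at 28 days, and Zbtb46 (0.62, FDR = 0.0048) the smallest. Of 8 border-associated macrophage markers 1, 1 and 4 were higher, with 1 lower at 28 days, and their sum was 28.9 to 116 CPM against 19.2 to 30.4 CPM. Clec12a (5.22, FDR = 8.7e-07) and Ms4a7 (4.5, FDR = 6.9e-05) had the largest Log2FC and Lyve1 (-1.38, FDR = 0.024) the smallest. Only S100a8 of 6 neutrophil markers was tested, with a Log2FC of 0.14 (FDR = 0.95) at 28 days. The astrocyte marker Gfap rose by 1.40 (FDR = 0.0019) and Aqp4 by 0.66 (FDR = 0.0092) at 28 days, Slc1a2 was lowest at -0.15 (FDR = 0.45), and the sum of 8 astrocyte markers was 6649 to 9432 CPM against 6141 to 7533 CPM. The part of these cells in the levels of the 10 genes was not tested.

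Cst7 and Cd8a parted in the rAAV-control mouse replicate 2 at 8 days. This mouse held Cst7 at 49.8 CPM, within the rAAV-OVA range of 34.4 to 90.0 CPM, and Cd8a at 9.73 CPM, below their 52.0 to 163 CPM and above the 0.517 and 1.09 CPM of the other rAAV-control mice. Itgax (28.7 CPM), Clec7a (24 CPM), Trem2 (57 CPM), Tyrobp (69.3 CPM), Axl (170.0 CPM) and Cd68 (41.4 CPM) also lay inside the rAAV-OVA range at 8 days, and the astrocyte marker Gfap, at 2413 CPM, was above the highest rAAV-OVA value of 2107 CPM. Its homeostatic genes summed to 1667 CPM against 805 and 899 CPM in the other rAAV-control mice. The opposite held for the rAAV-OVA mouse replicate 4 at 28 days, whose Cd8a of 6.28 CPM was the lowest of its group, beside Cst7 at 3.59 CPM and homeostatic genes that summed to little more than the 664 to 762 CPM of the rAAV-control mice. Its neuron markers, at 6579 CPM, and its hippocampal neuron markers, at 779 CPM, lay inside the rAAV-OVA range and below all rAAV-control mice of that day.

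**Figure D5:**
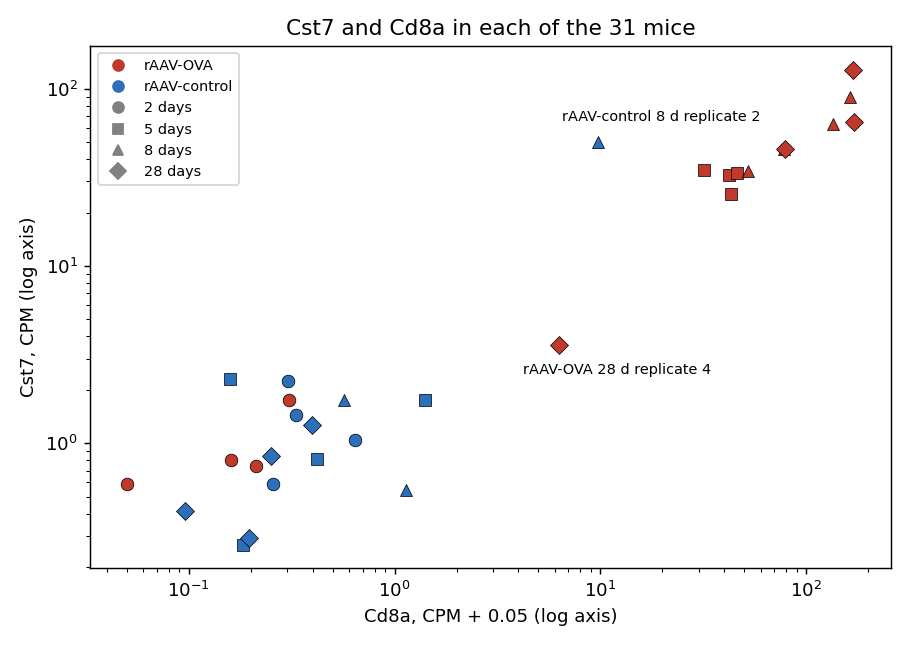
Cst7 (y axis, CPM) against Cd8a (x axis, CPM plus 0.05), both on log axes, for the 31 mice by vector (colour) and day (symbol). The rAAV-OVA mice at 5, 8 and 28 days lie at the upper right, apart from replicate 4 at 28 days (Cd8a 6.28, Cst7 3.59 CPM), while the rAAV-control mouse replicate 2 at 8 days holds as much Cst7 (49.8 CPM) with less Cd8a (9.73 CPM).

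Genes whose pattern was most like that of each of the 10 were sought over the 31 mice by the root mean square difference of log2 CPM from the mean of the 15 rAAV-control mice. Axl lay closest to its nearest genes, at 0.169 to Pabpc1 and Man2b1 and 0.181 to Slc29a3. Tyrobp was nearest to Tnfaip8l2 (0.202), Cd300c2 (0.215) and Cd53 (0.25), and Cd68 to Nckap1l (0.210), Ctsz (0.228) and Pik3cg (0.237). Trem2 was nearest to the lysosomal protease gene Ctsd (0.248), followed by Cd33 (0.281) and Dnase2a (0.282). Lpl was nearest to Mansc1 (0.255), Ppp1r3e (0.263) and Cachd1 (0.268), and Apoe to Slc46a3 (0.343), the lipid regulator Srebf1 (0.356) and Cryzl2 (0.361). With a prior count of 0.5 in place of 2, Cryzl2 for Apoe and Napsa and H2-DMb2 for Itgax were no longer among the nearest 3. The genes with the widest range had more distant neighbours. Itgax was nearest to Ly9 (0.419), Napsa (0.511) and H2-DMb2 (0.561), and Clec7a to Bcl2a1d (0.548), Ly9 (0.561) and C1s1 (0.576). Spp1 was nearest to Apod (0.657), Tmem176a (0.698) and Tmem176b (0.705), and Cst7 to H2-Oa (0.686), the T cell receptor segment Trav14d-1 (0.703) and H2-Q6 (0.733). Of these families Bcl2a1, H2 and Trav have near-identical copies, between which reads are divided by probability. Within the 10 genes the closest were Tyrobp and Cd68 (0.367), then Trem2 and Axl (0.388).

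Levels can be ordered between genes only per length, taken here as CPM per 1000 bases of the longest coding transcript. In rAAV-control mice at 28 days Apoe stood far above the others at 939 ± 118 (SD, n = 4), followed by Tyrobp at 25.3 ± 0.598, Axl at 14.3 ± 1.99, Trem2 at 11.1 ± 1.32 and Lpl at 10.6 ± 1.79. Trem2 and Lpl, and Axl and Trem2, lay within or near the sum of their SDs. Cd68 followed at 6.6 ± 0.387 and Spp1 at 3.95 ± 1.36, and Cst7 (0.714 ± 0.451), Clec7a (0.534 ± 0.380) and Itgax (0.227 ± 0.131) were lowest and not separated beyond their spread. In rAAV-OVA mice at 28 days Apoe was at 2973 ± 1159 and Tyrobp at 146 ± 84.3. Cst7 (61.2 ± 52.4), Cd68 (53.4 ± 33.3), Trem2 (52.4 ± 30.5), Axl (44.7 ± 21.5), Clec7a (36.1 ± 25.2), Spp1 (29.6 ± 17) and Itgax (15.8 ± 11.5) followed, each within the larger SD of itself and its neighbour. Lpl had the lowest mean, 9.33 ± 2.90, which was within the SD of Itgax.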

How the data were processed

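RNA of the left hippocampus of 31 mice was sequenced by the authors. Their steps were trimming (fastp), quantification against GENCODE M29 (Salmon 1.8.0 per the labels) and import at gene level (tximeta). The authors deposited expected counts, as integers and not normalized, of the 15648 genes that reached 15 counts in 15 mice or more. Totals ran from 19046977 to 57407902 counts (median 27024978). The labels also name DESeq2 1.36.0. Columns left unused numbered 0.

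Here edgeR 4.0.16 (R 4.3.3) fitted TMM-scaled counts to 8 groups and 2 surrogate variables from sva 3.50.0, tested genes by quasi-likelihood (robust), and adjusted p-values over the whole table (Benjamini-Hochberg). SE is the absolute Log2FC divided by the square root of F. Steps were tested on simulated data. Alternatives used DESeq2 1.42.0, limma 3.58.1, other covariates, filters, single days, single batches and each mouse left out. Log2 CPM used a prior count of 2. Transcript lengths came from GENCODE vM21. Named beside the 10 genes are partners of each, the 2 largest and 1 smallest Log2FC per other list at 28 days, and the 3 most alike genes. Members and lists were chosen with earlier results of these data known. Tyrobp and Lpl promoters were not analysed here, and some genes that the naming rule covers are not reported here.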

Additional observations from a re-analysis of the deposited data

Results flagged for a closer look

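In 2 of the 70 groups of 4 mice tested, 1 mouse stood far from the others, where chance gives about 1 in 20. Itgax was at 22.1 CPM in rAAV-OVA replicate 2 at 5 days, below 33.2 to 34.3 CPM in the other mice of that group. Clec7a was at 3.67 CPM in rAAV-OVA replicate 3 at 2 days, below 7.24 to 7.89 CPM in the others.

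Of 40 differences in response between days, 14 passed the test of the difference itself. Between 5 and 2 days these were Cst7 (3.62), Itgax (3.45), Clec7a (2.70), Cd68 (1.98), Tyrobp (1.66), Axl (0.97) and Lpl (-1.37) on the log2 scale. Between 28 and 5 days they were Spp1 (2.53), Clec7a (2.36), Apoe (2.32), Trem2 (1.67) and Lpl (0.74), and between 28 and 8 days Spp1 (3.91) and Apoe (1.69). Of all genes, 10.6% were called higher and 4.51% lower between 5 and 2 days. The share was 4.19% higher between 28 and 5 days, and 0.0767% in either direction between 28 and 8 days. Cst7, Itgax and Clec7a passed the filter only with the rAAV-OVA mice, and several of these calls were lost under other settings, as given above.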

How the results depend on the processing

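Of the 10 genes, the number called at 5 days was 5, and at 28 days 6, where every mouse needed 15 counts, a filter that removes Cst7, Itgax and Clec7a. At 5 days that fit called 1718 of the 13779 genes it kept. At 8 days it was 0 without surrogate variables, 1 with the batch label in their place, 7 with both, 2 with 15 counts in every mouse and 0 with the mice of that day alone. At 28 days it was 0 within batch 2, which left 2 mice per group. For the difference between 5 and 2 days it was 4 with 15 counts in every mouse. For that between 28 and 5 days it was 2 without surrogate variables, 2 with the batch label and 1 with both. For that between 28 and 8 days it was 6 by DESeq2 and 0 without surrogate variables, with the batch label or with both. In rAAV-OVA mice it was 4 from 2 to 5 days with 15 counts in every mouse, 0 from 5 to 8 days without surrogate variables or with the batch label, and 0 from 8 to 28 days with both. In rAAV-control mice it was 1 from 2 to 5 days by DESeq2, and from 2 to 28 days it was 3 by DESeq2, 0 by limma's voom, 2 without surrogate variables and 2 with the batch label. The cause was not tested, apart from the genes that the filter removes and the smaller groups of a single day or batch. For the other counts of this section the share of all genes called is not given here. A count of 0 can come from a fit that called no gene at all, as within batch 2 at 28 days.

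With 1 mouse left out the number called ran from 7 to 8 at 5 days, 0 to 7 at 8 days and 9 to 9 at 28 days. It ran from 5 to 8 for the difference between 5 and 2 days, 2 to 6 between 28 and 5 days and 0 to 7 between 28 and 8 days. In rAAV-OVA mice it ran from 3 to 7 (2 to 5 days), 0 to 1 (5 to 8), 0 to 2 (8 to 28) and 8 to 9 (2 to 28). In rAAV-control mice it ran from 0 to 1, 0 to 1, 0 to 2 and 0 to 3 over the same steps.

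Signs turned only for small Log2FC. At 2 days these were Apoe (0.19) and Trem2 (0.04) within batch 1, Cst7 (0.60) and Itgax (0.01) within batch 2, and Clec7a (-0.01 without surrogate variables, -0.01 with that day alone and -0.25 within batch 1). At 8 days Apoe was 0.13 without surrogate variables, 0.13 with the batch label, 0.17 with both and 0.16 with that day alone, and Lpl at 28 days was 0.22 within batch 1. With 1 mouse left out, Trem2 ran from -0.28 to 0.06, Axl from -0.28 to 0.01 and Clec7a from -0.25 to 0.21 at 2 days, Spp1 from -0.11 to 0.46 at 5 days, Apoe from -0.19 to 0.14 at 8 days and Lpl from -0.53 to 0.04 at 28 days. Of the other gene values, 598 of those with a mouse left out and 580 of those under other settings kept their sign and their side of the threshold, 80 and 52 lost the call, and 5 and 7 gained it. No paired analysis was possible because the mouse names are never repeated across groups.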
